A study of Mus musculus with 3 samples.

Results

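Stromal cells of day 5 implants that carried recombinant BMP2 were compared with stromal cells of implants of Matrigel alone, gene by gene. Matrigel is a basement membrane gel, and BMP2 is a growth factor that instructs recruited connective tissue cells to form cartilage and then bone outside the skeleton. A cell was taken as stromal when it had 200 to 6000 detected genes, at most 5% mitochondrial UMIs (unique molecular identifiers, each standing for 1 captured transcript) and at least 1% of its UMIs from *Col1a1*, *Col1a2*, *Col3a1*, *Dcn* and *Lum*. By this rule 3458 of the 14206 passing cells of the 2 libraries were stromal, 2085 of 8728 in the Matrigel-only library and 1373 of 5478 in the Vehicle library. UMIs were summed over the stromal cells of each library and scaled to CPM (UMIs of a gene over all UMIs of the sum, in the usual CPM scale), and the 6959 genes with at least 20 CPM on one side, of 31053 in the files, were described.

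The mice were CD-1 females 6 to 8 weeks old, implanted subcutaneously and analysed on day 5. The Matrigel-only mice had no BMP2 and are labelled as having received nothing. The Vehicle mice had BMP2 in the gel and were gavaged with corn oil and DMSO, so BMP2 and the gavage cannot be told apart in this contrast. The Palo library came from mice with BMP2 implants dosed with palovarotene, a retinoid receptor agonist, at 4 mg/kg, and its levels are given in places for context only. Each group is 1 library, so library and treatment cannot be told apart either, none of the differences could be set against replicates, and no test was made. Intervals are 95% intervals of counting error only.

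BMP proteins bind type I and type II serine/threonine kinase receptors, which phosphorylate SMAD proteins that switch on target genes such as the *Id* family. In connective tissue progenitors this signal, together with the transcription factor SOX9 and its partners SOX5 and SOX6, turns on the genes of cartilage matrix, including type II, IX and XI collagens and aggrecan. Fibroblasts of skin and fascia include a widespread progenitor state marked by *Pi16*, *Dpp4* and *Cd34*, from which more specialised fibroblasts are thought to arise.

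The label of the cells follows from the rule, so the rule genes cannot check it. Of 12 stromal markers, the rule genes included, 6 were at least 2-fold lower in Vehicle and none was 2-fold higher. These 12 summed to 85336 CPM in Matrigel-only and 58458 CPM in Vehicle, against 641 and 792 CPM in the other cells. The 5 rule genes are in these sums, so the gap to the other cells follows in part from the rule and does not check the label. The rule genes made up a median of 7.02% of a stromal cell's UMIs in Matrigel-only and 5.06% in Vehicle, against 0.0402% and 0.0520% in the other passing cells. Their levels are a description, since they chose the cells. *Col1a1* stood at 24627 CPM in Matrigel-only and 20370 CPM in Vehicle, *Col3a1* at 25917 and 11387, *Dcn* at 3903 and 1766, and *Lum* at 1015 and 973. Few cells lay near the limit, with 9 Matrigel-only and 15 Vehicle cells between 0.8% and 1% and 9 and 11 cells between 1% and 1.2%. The stromal share was 23.9% (23.0 to 24.8) in Matrigel-only and 25.1% (23.9 to 26.2) in Vehicle, a difference of 1.18 percentage points (-0.273 to 2.64) whose interval included 0.

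The Vehicle stromal cells were deeper, with a median of 17114 UMIs and 4278 genes per cell against 9082 UMIs and 3086 genes, while the other cells of the libraries had medians of 3208 and 2950 UMIs. The libraries shared 19 cell barcodes, 1 of them among stromal cells. The sums behind the CPM values held 20049136 UMIs in Matrigel-only and 23591212 in Vehicle. Macrophage transcripts were more abundant in the Matrigel-only stromal sum: 10 of the 13 described macrophage markers were at least 2-fold higher there, and the 18 listed markers summed to 2177 CPM in Matrigel-only and 942 CPM in Vehicle, against 53480 and 43232 CPM in the other cells. Without the 199 Matrigel-only and 66 Vehicle stromal cells that held 0.2% or more leukocyte UMIs, 290 genes were called higher and 560 lower by the 2-fold criterion used throughout. No marker of T and NK cells, granulocytes and basophils, B and dendritic cells, skeletal muscle or keratinocytes reached 20 CPM in either stromal sum. That level was reached by 1 of 10 endothelial and 1 of 6 adipocyte markers, both 2-fold lower in Vehicle. Of 8 pericyte and smooth muscle markers 2 reached it, 1 of them 2-fold higher and 1 lower. Of 7 Schwann cell and melanocyte markers 1 reached it and differed by less than 2-fold. Globin transcripts were more abundant in the Vehicle stromal sum, *Hbb-bs* with 2.89 CPM in Matrigel-only and 84.4 CPM in Vehicle. However, 1 Vehicle cell held 79.6% of the Vehicle UMIs of that gene.

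Most genes differed by less than 2-fold. Of the 6959 genes, 3191 (45.9%) lay within 1.2-fold and the median log2 ratio of Vehicle over Matrigel-only was -0.007, with 5 CPM added to both sides as in all log2 ratios here. A gene was called when that ratio reached 2-fold. Vehicle was higher for 294 genes (4.22% of those described) and lower for 593 (8.52%), and by 8-fold or more it was higher for 40 and lower for 18. Calls at 2-fold were more often lower and calls at 8-fold more often higher. The counts of called members in the gene lists below are to be read beside the shares of 4.22% and 8.52%. Of the 294 higher genes 125 had 20 CPM on both sides and 169 in Vehicle alone. Of the 593 lower genes 286 had it on both sides and 307 in Matrigel-only alone. Over all described genes the numbers were 5687 on both sides, 492 in Vehicle alone and 780 in Matrigel-only alone. Many calls thus rest on genes that passed the minimum only on the side where they were high.

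**Figure D1:**
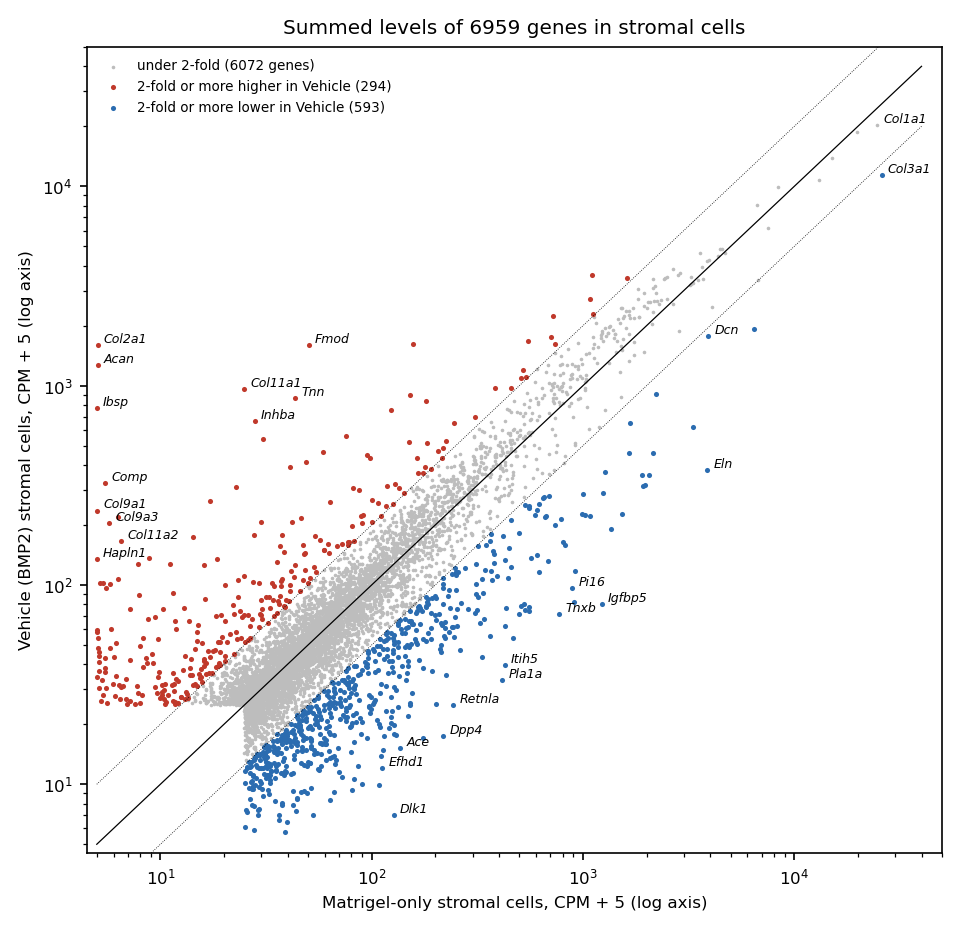
Level of each of the 6959 described genes in Matrigel-only (x axis) and Vehicle stromal cells (y axis), in CPM with 5 added, both axes logarithmic. Red points are the 294 genes called higher in Vehicle, blue points the 593 called lower, the solid line marks equality and the dotted lines 2-fold, and *Col2a1*, *Acan* and *Ibsp* sit at the left edge, where the Matrigel-only sum held 0 or 1 UMI.

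Of the 15 genes highest in Vehicle 10 were on the cartilage lists and 1, *Ibsp*, on the osteoblast list. The 15 largest log2 ratios were those of *Col2a1* (8.30), *Acan* (7.98), *Ibsp* (7.27), *Comp* (5.89), *Col9a1* (5.56), *Col11a1* (5.28), *Col9a3* (5.16), *Slpi* (5.12), *Fmod* (5.00), *Hapln1* (4.75), *Col11a2* (4.67), *Inhba* (4.57), *Tnn* (4.32), *Moxd1* (4.30) and *Col9a2* (4.26). Of these, 6 encode chains of the cartilage collagens II, IX and XI, which form the fibrils of cartilage. *Acan* (aggrecan), *Hapln1* (the link protein that anchors aggrecan to hyaluronan) and *Comp* (cartilage oligomeric matrix protein) encode other parts of that matrix. *Slpi*, a secreted inhibitor of leukocyte proteases, and *Moxd1*, a monooxygenase-like protein, belong to no list here, nor does *Tnn*, and *Inhba* belongs to the TGF-beta and activin list.

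Of the 294 genes, 6 had no UMI in the 20049136 of the Matrigel-only stromal sum: *Ibsp*, *Col9a1*, *Hapln1*, *Susd5*, *Klk4* and *Panx3*. The symbols of *Susd5*, *Klk4* and *Panx3* were read out after their values were seen. *Ibsp* (bone sialoprotein, chr5:104299171-104311469 on mm10, plus strand) stood at 765 CPM in Vehicle, at least 5110-fold above the level of 3 counts in the Matrigel-only sum. *Col9a1* stood at 231 CPM and *Hapln1* at 129 CPM, at least 1545-fold and at least 864-fold above the same floor. *Col2a1* (chr15:97975602-98004695, minus strand) had 1 UMI in Matrigel-only and 37404 in Vehicle, a ratio of CPM of 31788 with an interval of 5705 to 1255590.

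All 7 described cartilage collagen genes were called higher (*Col10a1* of hypertrophic cartilage, the eighth listed, stayed under 20 CPM on both sides), with a median log2 ratio of 5.16, against -0.02 over the 8728 genes with a mean of at least 10 CPM. *Col11a1* stood at 19.9 CPM in Matrigel-only and 958 CPM in Vehicle, and *Col27a1*, the member with the smallest ratio, at 75.3 and 193 CPM. Among 12 described cartilage matrix proteins 9 were higher and 2 lower. *Fmod* (fibromodulin, a small proteoglycan on collagen fibrils) stood at 45.2 CPM in Matrigel-only and 1599 CPM in Vehicle. *Cilp* and *Prelp*, also found in cartilage, were lower, with 327 and 102 CPM and with 357 and 161 CPM. Without the cartilage range the calls of *Col9a3* (0.59), *Hapln1* (0.45), *Matn3* (0.55), *Cilp* (-0.94) and *Prelp* (-0.90) ended, the values being log2 ratios.

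The transcription factors of chondrogenesis split into 8 higher, 4 lower and 1 uncalled. *Sox9* stood at 53.5 CPM in Matrigel-only and 461 CPM in Vehicle, *Sox6* at 0.0998 and 35.9 CPM, and *Sox5* at 11.8 and 41.5 CPM. *Sox6* thus had 2 UMIs on the Matrigel-only side, while *Sox9* and *Sox5* were already present without BMP2. Without the cartilage range *Sox5* and *Sox6* had log2 ratios of 0.75 and 0.84, under the limit. *Trps1*, *Foxc1*, *Scx* (scleraxis, the tendon regulator), *Mef2c* and *Runx2* (the regulator of hypertrophy and bone) were higher too, *Scx* with 4.09 and 39.9 CPM and *Runx2* with 31.8 and 82.6 CPM. *Osr1*, *Osr2*, *Barx2* and *Zbtb20* were lower, *Osr1* with 103 CPM in Matrigel-only and 15.1 CPM in Vehicle. Of 15 regulators of mesenchyme in general none was higher and 7 were lower, among them *Meox1* (118 and 15.4 CPM), *Ebf2* (128 and 19.4 CPM) and *Klf4* (386 and 106 CPM). *Prrx2*, *Shox2*, *Tcf4* and *Tbx15* kept log2 ratios between -0.17 and 0.25.

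Part of the osteoblast list was higher on the Vehicle side at day 5. Of the 20 genes listed, 8 stayed under 20 CPM on both sides. Among 12 described, 6 were higher and none lower. *Sp7* (osterix, required for osteoblast formation) had 1.30 CPM in Matrigel-only and 102 CPM in Vehicle. *Alpl* (alkaline phosphatase) had 0.549 and 91.3 CPM. *Spp1* (osteopontin) had 92.7 and 428 CPM and *Pth1r*, the receptor for PTH and PTHrP, 41.2 and 211 CPM. Without the *Pi16* cells *Runx2*, also on this list, had a log2 ratio of 0.80. *Sparc*, *Cdh11* and *Atf4*, which many connective tissue cells express, lay within log2 ratios of -0.12 to 0.20. In Palo stromal cells, of which there were 1184, *Ibsp* had no UMI, *Sp7* stood at 1.58 CPM and *Alpl* at 0.126 CPM.

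**Figure D2:**
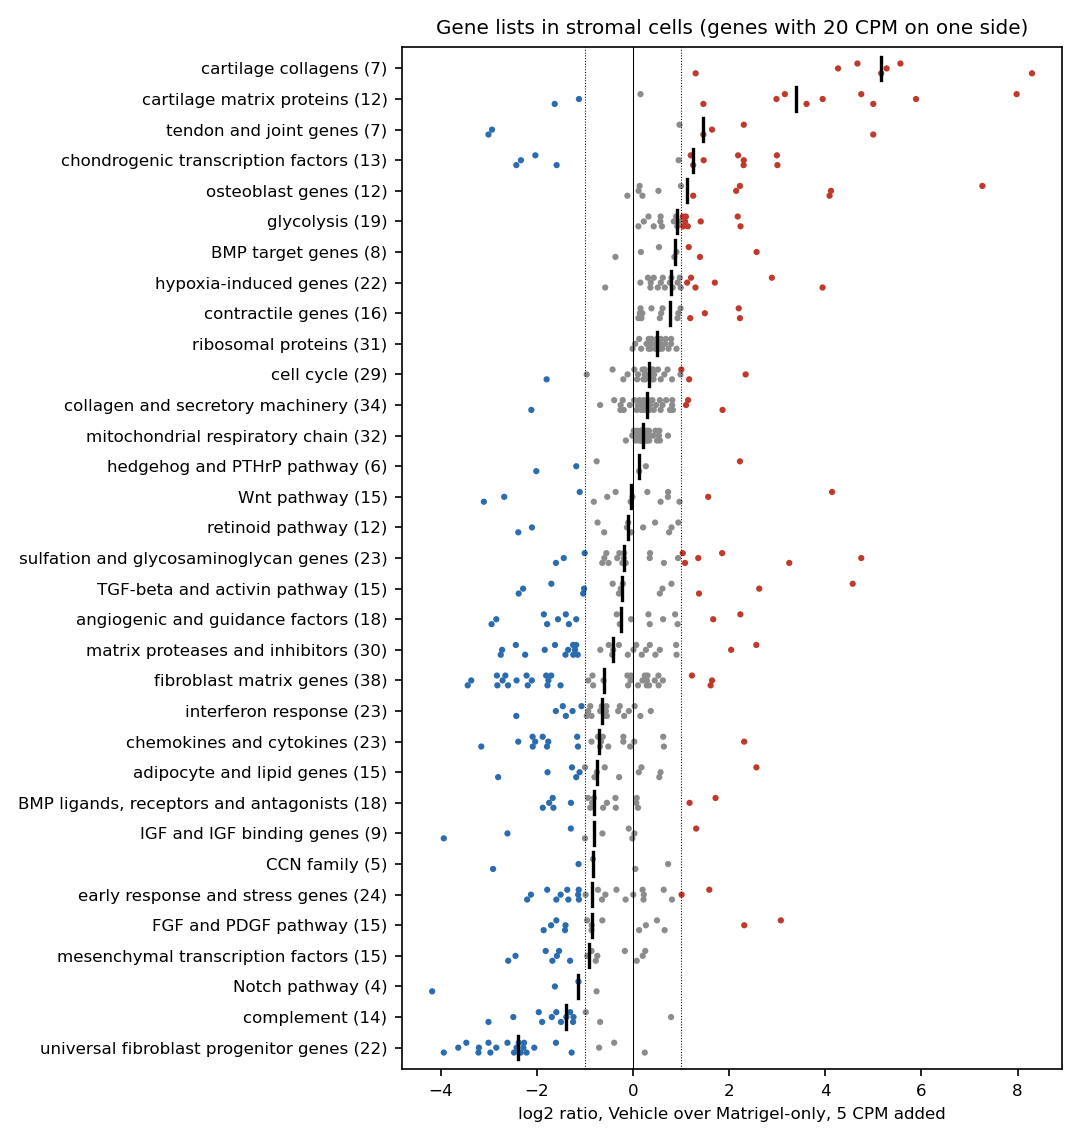
Log2 ratio of Vehicle over Matrigel-only stromal cells (x axis, 5 CPM added) for the described genes of 33 lists (y axis, number described in brackets). Red points are called higher, blue points called lower and grey points uncalled, and the black bar is the list's median over members with a mean of at least 10 CPM. The medians run from -2.40 for the universal fibroblast progenitor genes to 5.16 for the cartilage collagens.

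The cells could be divided further by the genes they held. In Vehicle, 639 of the 1373 stromal cells (46.5%, 43.9 to 49.2) had at least 0.05% of their UMIs from *Acan* and *Col2a1* together and are called the cartilage range. In Matrigel-only 0 of 2085 did, which allows a share of up to 0.144% by the limit of 3 counts and 0.177% by the exact two-sided interval. The limit is a point on a range and not a border between types, since 152 Vehicle cells lay between 0.025% and 0.1%. Cells outside it with a *Pi16* UMI made up 1153 Matrigel-only (55.3%) and 148 Vehicle stromal cells (10.8%), called *Pi16* cells, and the remaining cells numbered 932 and 586. Log2 ratios given as without the *Pi16* cells left out every stromal cell with a *Pi16* UMI, inside the cartilage range too. These were 1153 Matrigel-only and 167 Vehicle cells. The cartilage range held 47% of the Vehicle stromal UMIs, and 226 of the 294 higher genes (76.9%) had at least as many of their Vehicle UMIs inside that range as outside it, against 1688 of all 6959 described genes (24.3%). The range was cut on the 2 genes with the largest ratios, so these shares are a description.

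Higher genes fell into patterns by where they were found in Vehicle. Of the 294, the level in the cartilage range was at least 2-fold above that in the remaining cells for 93, at least 2-fold below for 18 and between for 183. Over all 6959 described genes it was 2-fold above for 136 (1.95%) and 2-fold below for 182 (2.62%). The first pattern was that of *Col2a1*, with 3359 CPM in the cartilage range and 12.0 CPM in the remaining Vehicle cells, and of *Hapln1*, with 273 and 2.03 CPM. *Acan* and *Col2a1* defined the range, so their own split is no finding. *Col9a1* (484 and 7.45 CPM), *Col9a3* (419 and 4.06 CPM) and *Frzb*, a secreted Wnt inhibitor of cartilage (196 and 7.93 CPM), shared it without defining it.

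The second pattern was a similar level on both sides of the limit. *Sp7* stood at 110 CPM in the cartilage range and 108 CPM in the remaining Vehicle cells, against 2.55 CPM in the remaining Matrigel-only cells. *Fmod* stood at 2086 and 1332 CPM against 72.3 CPM, *Tnn* (tenascin-N, a matrix protein of bone-forming connective tissue) at 1037 and 816 CPM against 66.0 CPM, and *Scx* at 46.1 and 37.9 CPM against 7.25 CPM. These genes were therefore far higher in Vehicle also among cells with few or no aggrecan and type II collagen UMIs. Even in Vehicle *Pi16* cells the level of *Fmod* was 381 CPM, against 17.3 CPM in Matrigel-only *Pi16* cells.

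The third pattern was a higher level outside the cartilage range. *Inhba*, the subunit of activin A, stood at 996 CPM in the remaining Vehicle cells, 437 CPM in the cartilage range and 36.7 CPM in the remaining Matrigel-only cells. *Acta2* (smooth muscle actin, a mark of contractile myofibroblasts) stood at 1388, 386 and 306 CPM in that order. None of 16 described contractile genes was lower and 4 were higher, *Acta2*, *Actg2*, *Tpm2* and *Tagln*. Without the *Pi16* cells *Tpm2* and *Tagln* had log2 ratios of 0.91 and 0.62, under the limit. Their list was 0.77 in median log2 ratio over all stromal cells and 0.63 over the remaining cells. In Vehicle its median was -0.93 in the cartilage range relative to the remaining cells.

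**Figure D3:**
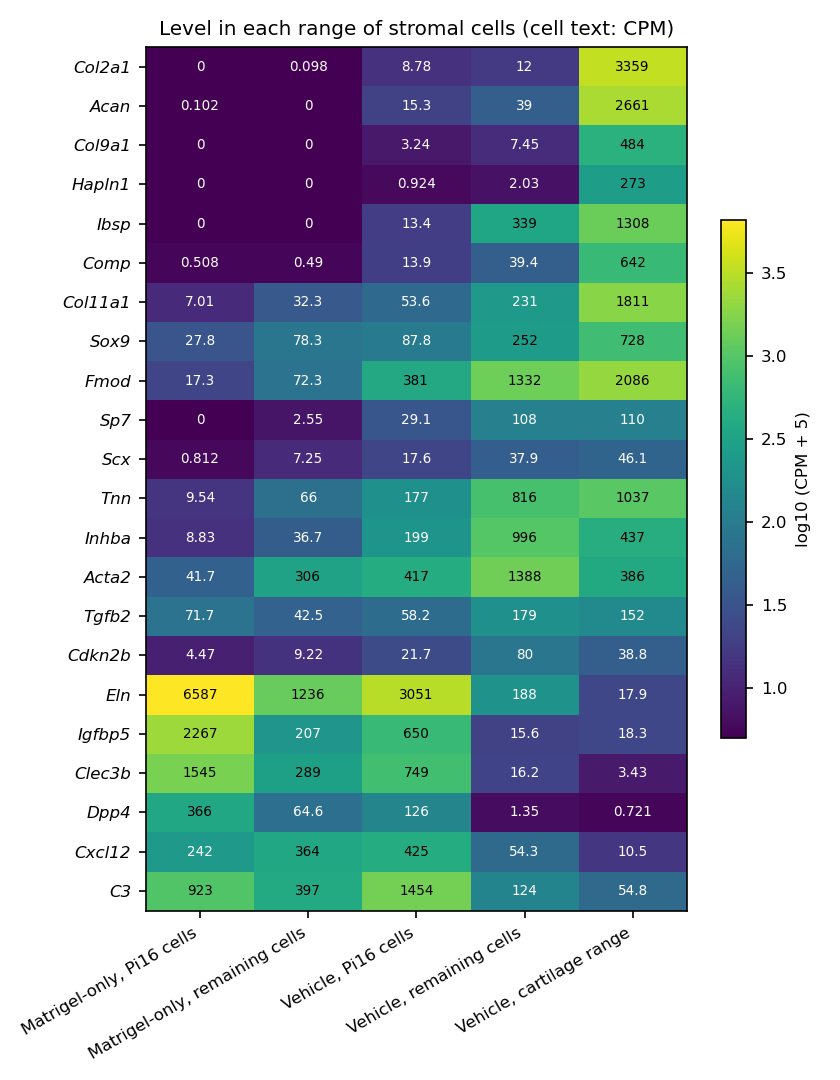
Level of 22 genes (rows) in 5 ranges of stromal cells (columns), with the CPM printed in each field and the colour giving log10 of CPM with 5 added. *Col2a1*, *Col9a1* and *Hapln1* are high in the Vehicle cartilage range alone, *Fmod*, *Sp7* and *Tnn* in both the cartilage range and the remaining Vehicle cells, and *Eln*, *Igfbp5* and *Clec3b* are highest in Matrigel-only *Pi16* cells.

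Leaving out the cartilage range left 193 genes called higher, of which 161 were among the 294, and 433 called lower. With the *Pi16* cells left out as well, in the remaining cells, 6804 genes had 20 CPM on one side, and 158 (2.32%) were called higher and 403 (5.92%) lower. The 294 higher genes divided into 157 that were also 2-fold higher in the remaining cells and 137 that were under 2-fold there. Of the 593 lower genes 394 were also 2-fold lower there and 199 were not. Among *Pi16* cells fewer calls held: 108 of the 294 were also 2-fold higher and 104 of the 593 also 2-fold lower. The share of all described genes that differed so in *Pi16* cells was not counted. 

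Over all stromal cells, genes of BMP signalling gave smaller differences than cartilage matrix genes. Of 15 listed BMP target genes 7 stayed under 20 CPM on both sides. Among 8 described BMP target genes 3 were higher and none lower, with a median log2 ratio of 0.88 over all stromal cells and 0.92 over the remaining cells. The cartilage matrix proteins had medians of 3.38 and 1.04 in that order, so the 2 lists were close in the remaining cells. *Id3* (an inhibitor of helix-loop-helix factors, chr4:136143497-136145755, plus strand) stood at 241 CPM in Matrigel-only and 642 CPM in Vehicle, 2.66-fold (2.57 to 2.75). *Id1* stood at 42.5 and 101 CPM, and *Bambi*, a decoy receptor that BMP induces, at 7.88 and 71.5 CPM. Without the *Pi16* cells *Id1* was just under the limit, with a log2 ratio of 0.98. *Smad7*, *Smad6* and *Atoh8* had positive log2 ratios under the 2-fold limit, from 0.54 to 0.91, while *Id2* (142 and 160 CPM) and the antagonist *Grem1* (28.0 and 20.6 CPM) had log2 ratios of 0.16 and -0.37.

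Secreted BMP antagonists and receptors were mostly lower or level. Of 18 described BMP ligands, receptors and antagonists 2 were higher and 5 lower. The receptor *Acvr1*, whose activating mutations cause the inherited form of heterotopic ossification, stood at 36.1 CPM in Matrigel-only and 87.8 CPM in Vehicle, and the activin binding protein *Fstl3* at 15.2 and 61.3 CPM. The receptors *Bmpr1a* (80.7 and 61.8 CPM) and *Bmpr2* (103 and 109 CPM) stayed within 2-fold. *Nbl1*, *Chrdl1* and *Fstl1*, which bind BMPs or related ligands, were lower, *Fstl1* with 6456 and 1924 CPM. The co-receptors *Rgma* and *Rgmb* were lower too.

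The TGF-beta and activin list held 3 higher and 5 lower genes of 15. The higher genes were ligands or induced matrix: *Inhba*, *Tgfb2* (56.8 and 155 CPM) and *Tgfbi* (118 and 753 CPM). The lower genes included all 3 TGF-beta receptors described. *Tgfbr2* stood at 797 and 159 CPM, *Tgfbr3* at 188 and 32.1 CPM and *Tgfbr1* at 42.2 and 18.3 CPM. *Tgfbr2* in the remaining cells stood at 518 CPM in Matrigel-only and 115 CPM in Vehicle, so the difference was also present outside the cartilage range and the *Pi16* cells.

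In the FGF and PDGF list of 15, *Fgfr3*, the receptor typical of chondrocytes, stood at 0.748 CPM in Matrigel-only and 43.4 CPM in Vehicle and *Fgfrl1* at 15.1 and 95 CPM (log2 ratio 0.80 without the cartilage range), while *Pdgfra*, *Fgf2*, *Fgf18*, *Pdgfd* and *Spry2* were lower. *Pdgfrb* and *Pdgfc* stayed within 2-fold. In the Wnt list of 15, *Frzb* and *Nkd2* were higher and *Dkk2*, *Wnt2* and *Sfrp4* lower, *Dkk2* with 75.4 and 4.37 CPM. The IGF list had 3 lower genes, led by *Igfbp5* and *Igfbp6* (1918 and 310 CPM), and 1 higher, the imprinted noncoding RNA *H19* (697 and 1739 CPM), which stood at 2740 CPM in the cartilage range and 896 CPM in the remaining Vehicle cells.

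Of the 15 genes lowest in Vehicle 5 were on the universal fibroblast progenitor list. The 15 lowest log2 ratios were those of *Dlk1* (-4.18), *Igfbp5* (-3.94), *Pla1a* (-3.65), *Dpp4* (-3.63), *Clec3b* (-3.47), *Islr2* (-3.46), *Tnxb* (-3.44), *Itih5* (-3.42), *Eln* (-3.37), *Akr1c18* (-3.35), *Retnla* (-3.28), *Efhd1* (-3.21), *Pi16* (-3.20), *Ace* (-3.17) and *Thbd* (-3.16). Of 22 described genes on the progenitor list 19 were lower and none higher, with a median of -2.40. *Dpp4* (the peptidase CD26) stood at 212 CPM in Matrigel-only and 12.5 CPM in Vehicle, *Cd34* at 916 and 113 CPM, and *Clec3b* (tetranectin) at 906 and 77.4 CPM. *Fn1*, *Gpx3* and *Smpd3* were the 3 list members that were not called, *Fn1* with 8376 and 9927 CPM.

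The differences were also present among cells without a *Pi16* UMI. In the remaining cells, which have no *Pi16* UMI by construction, *Clec3b* stood at 289 CPM in Matrigel-only and 16.2 CPM in Vehicle, *Dpp4* at 64.6 and 1.35 CPM and *Igfbp5* at 207 and 15.6 CPM. The progenitor list kept a median of -1.75 there. Among *Pi16* cells the same list was closer together, with a median of -0.77, and *Cd34* stood at 1386 CPM in Matrigel-only and 943 CPM in Vehicle. *Pi16* is on that list and chose these cells, so the smaller difference among them is a description. A cell without a *Pi16* UMI may still have held the transcript, and the Matrigel-only cells were shallower.

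*Dlk1*, a Notch-related surface protein of embryonic and preadipocyte cells (chr12:109452823-109463336, plus strand), had the lowest ratio of all and did not follow the *Pi16* cells. It stood at 160 CPM in the remaining Matrigel-only cells and 83.3 CPM in the Matrigel-only *Pi16* cells, against 1.55 and 11.6 CPM in Vehicle. In Matrigel-only 369 of 2085 stromal cells held its 2452 UMIs, while in Vehicle 25 cells held 48. Its level in Palo stromal cells was 168 CPM. *Dkk2*, *Meox1* and *Thbs4* were likewise higher in the remaining than in the *Pi16* cells of Matrigel-only. *Meox1* stood at 169 CPM in the remaining and 65.2 CPM in the *Pi16* cells of Matrigel-only, and at 27.4 and 5.08 CPM in Vehicle.

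*Retnla* is a secreted product of alternatively activated macrophages. Its level was 237 CPM in Matrigel-only and 20.01 CPM in Vehicle stromal cells, and 1 Matrigel-only cell held 12.0% of its 4758 UMIs there, against 0.446% for the top cell of *Dpp4*. In Vehicle 1 stromal cell held 34.1% of its 472 UMIs, against 5.42% for the top cell of *Dpp4*, so the Vehicle level rests on few cells. Among other cells with at least 3000 UMIs, thinned to that depth, 48.1% of 3244 had a *Retnla* UMI in Matrigel-only and 12.5% of 2198 in Vehicle. The part of macrophage transcripts in its stromal difference was not tested.

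The share of cells with a UMI showed how broadly the differences were spread. Shares were computed with each cell thinned to 3000 UMIs, which left out 202 Matrigel-only and 69 Vehicle stromal cells. Of the other cells 3244 of 6643 in Matrigel-only and 2198 of 4105 in Vehicle had that depth, so shares for other cells are those of the deeper cells. *Fmod* was found in 5.88% of Matrigel-only and 83.3% of Vehicle stromal cells (9.59% and 87.3% without thinning), and *Tnn* in 4.42% and 74.8%. *Sp7* was found in 0.270% and 22.7%, and *Col2a1* in 0.0162% and 25.2%. In the other cells of the Vehicle library of that depth 3.77% held a *Fmod* UMI, 2.47% a *Tnn* UMI, 0.436% an *Sp7* UMI and 4.36% a *Col2a1* UMI. Before thinning, the median depth of all other Vehicle cells was 3208 UMIs and that of all Vehicle stromal cells 17114. The Vehicle stromal shares lay above those of the other Vehicle cells for all 4 genes.

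Among lower genes, *Tnxb* (tenascin-X) was found in 71.7% of Matrigel-only and 8.01% of Vehicle stromal cells, *Eln* (elastin) in 70.2% and 12.4%, and *Clec3b* in 65.0% and 8.56%. *Dpp4* was found in 39.2% and 3.22%. The other cells held *Dpp4* in 3.54% and 2.44%, so the Vehicle stromal share of *Dpp4* was close to that of the other Vehicle cells. For *Tnxb* and *Eln* the other cells of Vehicle held 0.286% and 1.21%.

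**Figure D4:**
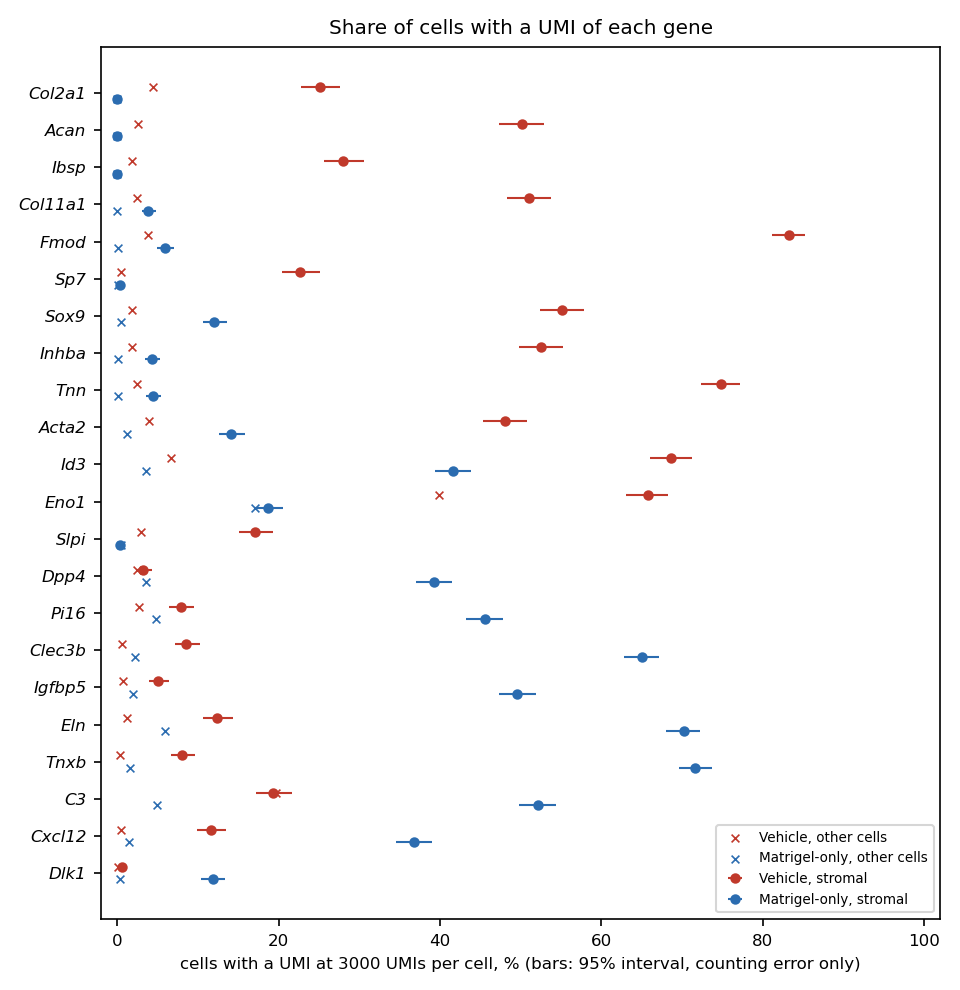
Share of cells with a UMI of each of 22 genes (x axis, percent, each cell thinned to 3000 UMIs) in Matrigel-only (blue) and Vehicle (red). Circles with bars are stromal cells with exact 95% intervals of counting error, and crosses are the other cells of the same library with at least 3000 UMIs. *Fmod*, *Tnn* and *Id3* reach over 60% of Vehicle stromal cells, while *Tnxb*, *Eln* and *Clec3b* are found in over 60% of Matrigel-only and under 13% of Vehicle stromal cells.

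Of 38 described fibroblast matrix genes 16 were lower, 3 higher and 19 uncalled. The lower ones included the parts of elastic fibres: *Eln* (3865 CPM in Matrigel-only and 371 CPM in Vehicle), *Fbn1* (fibrillin, 3321 and 616 CPM), *Mfap5* (2133 and 456 CPM), *Mfap2*, *Mfap4* and *Fbln1*. They also included basement membrane genes, *Col4a1* (123 and 13.0 CPM), *Col4a2*, *Nid1* and *Lama2*. The 3 higher genes were *Tnc* (tenascin-C, 713 and 2240 CPM), *Col12a1* (544 and 1676 CPM) and *Thbs1* (220 and 522 CPM). Collagens V and VI stayed level apart from *Col5a3*: *Col5a1*, *Col5a2*, *Col6a1*, *Col6a2* and *Col6a3* had log2 ratios from 0.20 to 0.45. *Col5a3* stood at 1261 and 364 CPM.

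Enzymes that cut or process matrix differed from gene to gene. Of 30 proteases and inhibitors 13 were lower and 2 higher. The aggrecan-cutting protease *Adamts5* stood at 522 CPM in Matrigel-only and 74.9 CPM in Vehicle and its relative *Adamts15* at 150 and 23.7 CPM, while *Adamts4* stayed at 57.7 and 53.2 CPM. *Mmp13*, the collagenase of hypertrophic cartilage, had 3 UMIs in Matrigel-only and 601 in Vehicle, 0.150 and 25.5 CPM. *Timp2* and *Timp3*, inhibitors of such proteases, were lower and *Timp1* had a log2 ratio of 0.91.

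Machinery for making cartilage matrix was higher in part. *Slc26a2*, the sulfate transporter on which aggrecan sulfation depends, stood at 36.0 CPM in Matrigel-only and 385 CPM in Vehicle. *Papss2*, which activates sulfate, stood at 37.9 and 105 CPM, and the chondroitin sulfate enzymes *Xylt1*, *Chsy1* and *Chst11* at 17 and 74.6, 72.2 and 159, and 21.5 and 49.3 CPM. Of the 23 genes of this list 6 were higher, *Hapln1* included, and 3 lower, the latter *Has1*, *Cd44* and *Ext1*. The median of the list was -0.18. In the remaining cells 1 of the 23 genes was 2-fold higher and 2 were 2-fold lower. *Slc26a2* kept a log2 ratio of 2.25 there, whereas *Papss2* and *Xylt1* had 0.16 and 0.22. Of 34 genes for collagen folding and secretion 3 were higher (*P3h2*, *P3h4* and *Loxl3*), 1 was lower (*Loxl1*) and the median was 0.30. Over all described genes 4.22% were higher and 8.52% lower.

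Of 14 described complement genes 11 were lower and none higher, with a median of -1.39. *C3*, the central component, stood at 655 CPM in Matrigel-only and 214 CPM in Vehicle, *C1s1* at 426 and 71.8 CPM and *C4b* at 423 and 128 CPM. Without the cartilage range the log2 ratio of *C3* was -0.88. *C1s1* and *C4b* have close relatives in the genome, and reads may have been divided among them. Of 23 chemokine, cytokine and receptor genes 10 were lower, 12 were uncalled and the median was -0.71. The lower genes included *Cxcl12* (304 and 67.7 CPM), *Ccl2* (437 and 103 CPM), *Csf1* (307 and 85.2 CPM) and *Cxcl14* (218 and 55.8 CPM). *Ptgs2*, the prostaglandin synthase, was the 1 higher gene (36.8 and 203 CPM).

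In *Pi16* cells the complement median was 0.26 and the chemokine median 0.56, against -1.35 and -0.82 in the remaining cells. *C3* in *Pi16* cells stood at 923 CPM in Matrigel-only and 1454 CPM in Vehicle, and *Cxcl12* at 242 and 425 CPM, while in the remaining cells *C3* stood at 397 and 124 CPM and *Cxcl12* at 364 and 54.3 CPM. *C3* and *Cxcl12* thus ran in opposite directions in the *Pi16* cells and in the remaining cells, though by less than 2-fold in the *Pi16* cells. Macrophage transcripts were higher in Matrigel-only, as given above, and without cells holding 0.2% or more leukocyte UMIs (199 Matrigel-only and 66 Vehicle cells) the medians of all stromal cells were -1.41 and -0.70.

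Among 23 described interferon-induced genes 6 were lower and none higher, with a median of -0.65, but the median was 0.11 in the remaining cells and -0.01 in *Pi16* cells. *Isg15* stood at 80.5 CPM in Matrigel-only and 42.0 CPM in Vehicle. By range it stood at 141 and 137 CPM in *Pi16* cells and at 22.3 and 46.0 CPM in the remaining cells. In the other cells of the libraries the list had a median of 0.78.

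**Figure D5:**
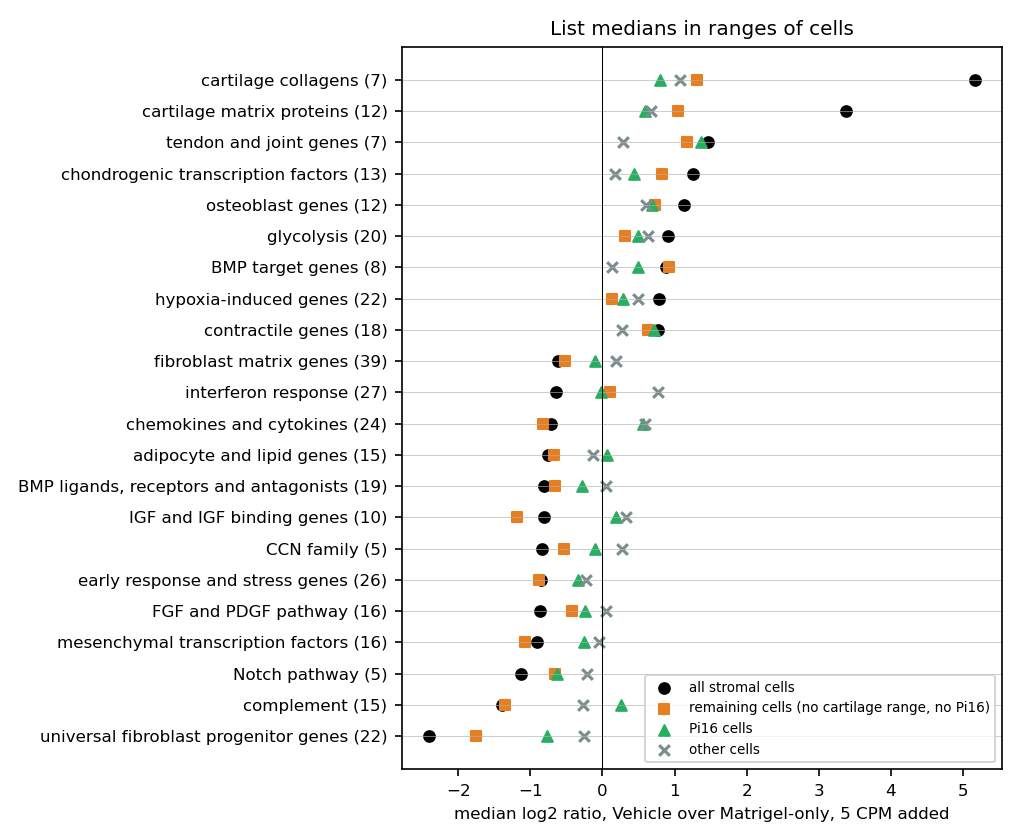
Median log2 ratio of Vehicle over Matrigel-only (x axis, 5 CPM added) for the lists whose median over all stromal cells was at least 0.6 in size (y axis, number of genes in the median in brackets), in all stromal cells (black circles), the remaining cells (orange squares), *Pi16* cells (green triangles) and the other cells of the libraries (grey crosses). The cartilage collagens go from 5.16 over all stromal cells to 1.32 in the remaining cells, and the complement genes from -1.39 over all stromal cells to 0.26 in *Pi16* cells.

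Glycolysis genes were higher, most of them by less than 2-fold, and in the remaining cells 2 of the 19 described reached 2-fold. Of 19 described, all had positive log2 ratios and 8 were called, with a median of 0.91 over all stromal cells, 0.31 over the remaining cells and 0.63 over the other cells of the libraries. Of 22 hypoxia-induced genes 6 were called higher and none lower, with medians of 0.78, 0.13 and 0.49. *Car9*, a carbonic anhydrase induced by low oxygen, stood at 5.24 CPM in Matrigel-only and 70.8 CPM in Vehicle. *Pgk1*, a glycolytic kinase, stood at 732 and 1619 CPM, and *Ldha*, lactate dehydrogenase, at 1124 and 2205 CPM, just under the 2-fold limit with a log2 ratio of 0.97. *Eno1* and *Gapdh* have near-identical pseudogene copies, and their values (90.4 and 444 CPM, 1605 and 3445 CPM) are uncertain for that reason. The calls of *Pgk1*, *Gapdh* and *Bnip3* ended without the cartilage range (log2 ratios of 0.83, 0.77 and 0.79) and without the *Pi16* cells (0.70, 0.70 and 0.68). In Palo stromal cells *Car9* stood at 3.98 CPM and *Ldha* at 1204 CPM.

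Hypoxia-inducible factors bind DNA at short cores that include ACGTG, the only core searched for here. The promoters of 3 of these genes are shown because they show where those letters fall. Each sequence is the 250 bases before a start of the gene in the RefSeq promoter table (GRCm38.p6), read 5′ to 3′ on the gene's strand. Each ACGTG or its reverse complement CACGT is in capitals, and overlapping matches of both were counted separately. *Ldha* has 2 promoters in that table, and the window with the most matches was taken. The *Ldha* window lies at chr7:46845554-46845803, the *Pgk1* window at chrX:106186850-106187099 and the *Car9* window at chr4:43506776-43507025, all on the plus strand.
Ldha: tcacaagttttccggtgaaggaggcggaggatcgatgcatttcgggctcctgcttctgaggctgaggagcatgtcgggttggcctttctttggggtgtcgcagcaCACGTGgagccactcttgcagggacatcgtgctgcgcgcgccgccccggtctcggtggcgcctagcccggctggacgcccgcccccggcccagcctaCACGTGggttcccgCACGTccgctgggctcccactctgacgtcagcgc
Pgk1: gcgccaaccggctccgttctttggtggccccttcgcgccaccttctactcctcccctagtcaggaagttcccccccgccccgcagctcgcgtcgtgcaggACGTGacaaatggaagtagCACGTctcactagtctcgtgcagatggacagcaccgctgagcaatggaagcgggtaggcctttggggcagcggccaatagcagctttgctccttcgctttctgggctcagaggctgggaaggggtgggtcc
Car9: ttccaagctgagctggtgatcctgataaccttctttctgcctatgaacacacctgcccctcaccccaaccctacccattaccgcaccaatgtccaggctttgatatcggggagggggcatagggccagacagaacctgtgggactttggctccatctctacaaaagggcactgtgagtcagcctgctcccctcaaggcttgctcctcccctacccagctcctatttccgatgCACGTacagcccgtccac
*Ldha* held 5 matches, *Pgk1* 2 and *Car9* 1, while *Pdk1* of the hypoxia list, not shown, held no ACGTG or CACGT. Cores with other letters were not counted, here or in the shares that follow. Among 36 matched members of the 2 lists 22 (61.1%) had the letters in a promoter window of theirs, against 26.6% of the 5494 matched genes among those described and 18.5% of all 27025 genes of the table. Of the 210 matched higher genes 25.7% had them and of the 428 matched lower genes 17.1%. The 2 lists were put together from genes already known as hypoxia-induced or glycolytic, so their share describes the lists and not a difference between the libraries. A match is a description of the sequence and not a measured binding site.

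All 32 respiratory chain genes lay under 2-fold, with a median of 0.21, and so did all 31 ribosomal protein genes, with a median of 0.50. Of 29 cell cycle genes 3 were higher, *Cdkn2b* (6.88 and 55.3 CPM), *H2afz* (log2 ratio 0.93 without the cartilage range and 0.97 without the *Pi16* cells) and *Hmgb2*, and *Cdkn1c* was lower (54.5 and 12.1 CPM). The proliferation marker *Mki67* stood at 70.5 and 95.6 CPM and *Top2a* at 93.7 and 108 CPM. The cell cycle median was 0.33 over all stromal cells and -0.12 over the remaining cells.

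Among 24 described early response and stress genes, which also respond to tissue digestion, 10 were lower and 2 higher, with a median of -0.86. *Egr1* stood at 140 and 28.2 CPM and *Dusp1* at 207 and 41.0 CPM, while *Hspb1*, a small heat shock protein, stood at 43.2 and 140 CPM. *Jun*, *Junb* and *Myc* stayed under 2-fold. Their part in the other differences was not tested.

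Of 15 described adipocyte and lipid genes 1 was higher and 5 were lower, against 4.22% and 8.52% of all described genes. *Lpl* (lipoprotein lipase) stood at 494 CPM in Matrigel-only and 66.4 CPM in Vehicle, *Fabp4* at 57.9 and 13.4 CPM and *Fabp5* at 146 and 892 CPM. Of 12 retinoid pathway genes 2 were lower, *Aldh1a1* (39.3 and 3.48 CPM) and *Rarres2* (604 and 137 CPM), and the receptors *Rara* (42.3 and 39.2 CPM) and *Rarg* (35.0 and 49.9 CPM) stayed under 2-fold. *Aldh1a3*, a retinoic acid synthesising enzyme, was level in the sums over all stromal cells at 88.2 and 80.4 CPM, a log2 ratio of -0.13. With each cell given equal weight the log2 ratio was -0.64. In the remaining cells *Aldh1a3* stood at 15.6 CPM in Matrigel-only and 128 CPM in Vehicle, and in *Pi16* cells at 163 and 113 CPM. The differences thus ran in opposite directions, the one in *Pi16* cells by less than 2-fold. *Pcolce2*, which promotes collagen processing, was also close over all stromal cells (132 and 169 CPM), with 23.9 and 126 CPM in the remaining cells and 243 and 251 CPM in *Pi16* cells.

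Angiogenic and guidance factors were divided. Of 18 described, 8 were lower and 2 higher. *Nrp2* stood at 32.7 CPM in Matrigel-only and 172 CPM in Vehicle, *Angpt1* at 3.04 and 20.6 CPM and *Vegfa* at 151 and 292 CPM, a log2 ratio of 0.93. *Vegfd* (105 and 27 CPM), *Ntn4* (58.8 and 3.31 CPM) and *Sema3c* (551 and 72.5 CPM) were lower. Of 6 hedgehog and PTHrP pathway genes *Pth1r* was higher and *Gas1* and *Cdon* lower, and *Smo* and *Gli3* stayed under 2-fold.

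Among the other cells, 6670 genes had 20 CPM on one side, of which 250 (3.75%) were 2-fold higher in Vehicle and 88 (1.32%) lower. Of the 294 genes higher in stromal cells 115 had 20 CPM on one side in the other cells, and 32 of these were also 2-fold higher there. Of the 593 lower genes 276 had that level and 30 of these were also 2-fold lower there. Without that minimum the numbers were 56 and 35.

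Among 7 described tendon and joint genes 4 were higher (*Scx*, *Fmod*, *Prg4* and *Tnc*) and 2 lower (*Thbs4* and *Cd55*). The 4 higher genes are also counted in the chondrogenic factor, cartilage matrix or fibroblast matrix lists above, so they are not a separate result. Of 5 described CCN genes, which encode matricellular signalling proteins, 2 were lower (*Nov* and *Wisp2*). Of 4 described Notch pathway genes 3 were lower (*Jag1*, *Dlk1* and *Hes1*), with none higher in either list. These lists are small, and over all described genes 4.22% were higher and 8.52% lower.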

How the data were processed

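The values were UMI counts per gene and cell deposited by the authors, 1 filtered matrix per group, made per the submitters' processing notes with Cell Ranger 3.0.2 on mm10. Implants had been digested with dispase and cells captured on the 10x Chromium platform, and the figure legends give 6 ectopic masses per group. That these were pooled is inferred from there being 1 library per group. Cells were filtered as stated in the report, counts were summed per library, and CPM, exact Poisson, Clopper-Pearson, Newcombe and conditional binomial intervals were computed in Python 3.11.15 (numpy 2.4.6, scipy 1.17.1, pandas 2.3.3, matplotlib 3.10.9). Scaling by TMM used edgeR 4.0.16 in R 4.3.3, without its tests. Doublets were not called by a tool, and stromal cells with 0.2% or more leukocyte UMIs were left out as an alternative. Free RNA was not removed. The depth given in the report sets the precision of each level. Named genes were the 15 with the highest and the 15 with the lowest log2 ratio, and list members with at least 20 CPM on one side, by size of the ratio and then those nearest 0. Genes named outside that rule are the rule genes, *Col10a1* and those marked in the report. The members, gene lists and thresholds were chosen with earlier results of these data known. The scripts were tested on simulated data. Promoter windows came from RefSeq (GRCm38.p6), gene positions from the mm10 annotation.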

Additional observations from a re-analysis of the deposited data

Results flagged for a closer look

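For 14 genes the log2 ratio of Vehicle over Matrigel-only passed 2-fold in opposite directions in stromal cells and in the other cells of the same libraries. The difference between the cell populations was not tested, since each group is 1 library. Of the 6959 described genes 5377 had 20 CPM on one side in the other cells, among them 115 of those higher and 276 of those lower in stromal cells. The other cells also differed in make-up: T and NK cell markers summed to 39.6 CPM in Matrigel-only and 438 CPM in Vehicle, granulocyte and basophil markers to 42.8 and 449 CPM. Keratinocyte markers summed to 2.87 and 112 CPM and endothelial markers to 41.1 and 117 CPM. Sums were lower in Vehicle for macrophage (53480 and 43232 CPM), B and dendritic (183 and 129 CPM) and adipocyte markers (250 and 57.4 CPM). The part of this make-up was not tested. Of the 14 genes, 12 were lower in Vehicle stromal cells and higher in the other Vehicle cells. The log2 ratio of *Igfbp5*, an IGF binding protein, was -3.94 in stromal cells and 1.46 in the other cells, that of the protease *Htra3* was -2.75 and 1.35, and that of the surface protein *Thy1* was -2.37 and 1.33. The values of *Creb5* were -2.34 and 1.52, of *Slco3a1* -1.84 and 1.26, and of *Ablim1* -1.79 and 1.64. The complement gene *C3* had -1.59 and 2.04, *Dock4* -1.56 and 1.19, and *Pdpn* (podoplanin) -1.56 and 2.75. *Ctla2a* had -1.38 and 2.55, *Ly6a*, which has close relatives that may share its reads, -1.28 and 2.75, and *Nrg1* -1.05 and 1.42. The opposite order was found for *Lifr*, the LIF receptor, with 1.07 in stromal and -1.04 in the other cells, and for *Rnf150*, with 1.51 and -1.12.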

How the results depend on the processing

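No paired analysis was possible because each group is 1 library. Under 15 alternatives the number of genes called ranged from 176 to 396 higher and from 381 to 757 lower. A minimum of 50 CPM in place of 20 gave 176 higher and 381 lower genes, and leaving out the cartilage range gave 193 higher genes. The 115 genes followed through the alternatives included those with the highest and the lowest log2 ratios. Their keeping of sign therefore says little about the other calls. Of these 115 genes 106 were called, all 106 kept their sign and 87 stayed at 2-fold or more in each that gave a value. Of all 294 higher and 593 lower genes, 161 and 418 were still called without the cartilage range. Without the *Pi16* cells 217 and 448 were still called. Without the cartilage range *Col9a3* had a log2 ratio of 0.59, *Hapln1* 0.45 and *Pgk1* 0.83, and without the *Pi16* cells *Id1* had 0.98 and *Runx2* 0.80. *Pi16* itself has no value there. The medians of 31 of 33 lists kept their sign, the Wnt and retinoid lists being the exceptions. Without replicate libraries, the spread between implants is unknown, and counting intervals do not cover it.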
